A study of Mus musculus with 36 samples.

Results

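Tissue macrophages reside in almost every organ, where they engulf dying cells, present antigen and sense damage. They depend on signalling through the CSF1 receptor, and in the joint they line and populate the synovium, whereas healthy articular cartilage has no vessels and chondrocytes as its resident cells. The genes described here were 10 tissue macrophage genes chosen by name, with no threshold on their values. They comprise the pan-macrophage genes Csf1r (the receptor for CSF1 and IL-34), Adgre1 (the surface antigen F4/80) and Cd68 (a lysosomal glycoprotein). Receptors of resident macrophages make up a further set, with Folr2 (folate receptor beta), Lyve1 (a hyaluronan receptor), Timd4 (a phosphatidylserine receptor), Mrc1 (the mannose receptor CD206) and Cd163 (the haemoglobin-haptoglobin scavenger receptor). Mertk (a receptor tyrosine kinase for the engulfment of apoptotic cells) and Trem2 (a lipid-sensing receptor of phagocytes) complete the list. Of the 10 genes, 9 had a row among the 30048 RefSeq transcripts counted, each taken by its transcript with the highest mean count. No row was paired with Cd68 by the annotation used, and its RNA was not analysed here. In GRCm38 the counted transcripts lie on chr7:101839988-101845331 (Folr2, minus strand), chr7:110850607-110862953 (Lyve1, minus), chr11:46810799-46844333 (Timd4, plus), chr2:14229414-14332023 (Mrc1, plus), chr6:124304651-124330527 (Cd163, plus), chr2:128698915-128803007 (Mertk, plus), chr17:57358686-57483529 (Adgre1, plus), chr17:48346401-48352276 (Trem2, plus) and, for Csf1r, chromosome 18.

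The tissue was knee articular cartilage, dissected off tibia and femur of male C57BL/6J mice operated on at 12 weeks of age. In the right knee the medial meniscus was destabilized (DMM), which models osteoarthritis after joint injury, and the left knee was not operated on and served as the control. RNA-seq covered 3 control and 3 DMM libraries for each of 4 and 12 weeks after surgery, each from the pooled tissue of 3 knees, and DNA methylation was measured in 12 pools from other mice. There were no sham-operated or untouched mice, so every control knee belonged to a mouse that had surgery, and the 12-week mice were also older.

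The 12 RNA libraries held 27706547 to 62737656 counts. Counts of replicates differed well beyond counting error, with a chi-square per degree of freedom of 48.7 to 440 within groups, so no library was a copy of another in its group. Chondrocyte genes, which the tissue label predicts, had 5911 to 26480 counts scaled per 1e6 of the library (CPM) summed over 10 genes. Most of this sum was Chad alone, with 7897 to 20750 CPM in the 4-week controls, where the sum was 10410 to 26480 CPM. Genes of other tissues were present in every group, with summed levels of 9189 to 42950 CPM for 10 neutrophil genes, 7189 to 21130 CPM for 7 erythroid genes (with Hba-a1 and Hba-a2, near-identical copies with all but equal counts, both in the sum) and 58.9 to 15240 CPM for 8 skeletal muscle genes. In bulk tissue, fewer macrophages and less RNA per macrophage cannot be told apart. In comparisons of 12 with 4 weeks, the age of the mice, the time since surgery and how the libraries of each week were made cannot be told apart either.

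A set of 4 stretches of the mouse genome (GRCm38.p6, RefSeq) shows where the methylation of these genes was read, because the genes differed widely in it. Each is written 5′ to 3′ on the strand of its gene, and capitals mark the CpGs with a measured cytosine. Timd4 had its measured CpGs upstream of its start (chr11:46810209-46810315, plus strand), Mertk had 5 of its 43 cytosines upstream of its start, which are the ones shown (chr2:128698665-128698914, plus strand), Adgre1 in an intron close to its start (chr17:57359006-57359194, plus strand) and Folr2 in a coding exon (chr7:101843670-101843779, minus strand).
Timd4: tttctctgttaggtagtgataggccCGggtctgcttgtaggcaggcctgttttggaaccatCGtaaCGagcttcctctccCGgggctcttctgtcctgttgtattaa
Mertk: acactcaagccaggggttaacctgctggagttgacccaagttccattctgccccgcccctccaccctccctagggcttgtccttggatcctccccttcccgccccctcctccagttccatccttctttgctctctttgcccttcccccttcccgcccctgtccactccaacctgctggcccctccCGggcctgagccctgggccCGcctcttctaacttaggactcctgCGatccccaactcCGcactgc
Adgre1: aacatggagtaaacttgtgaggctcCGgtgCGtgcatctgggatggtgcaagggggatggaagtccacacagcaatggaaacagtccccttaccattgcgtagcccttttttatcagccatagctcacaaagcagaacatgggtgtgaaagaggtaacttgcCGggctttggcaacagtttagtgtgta
Folr2: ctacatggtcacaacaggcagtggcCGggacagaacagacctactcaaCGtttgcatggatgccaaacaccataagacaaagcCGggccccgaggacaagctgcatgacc

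A pair of upstream sequences is shown because they hold the core motif of PU.1 (encoded by Spi1), the transcription factor that macrophage development requires. They cover the 250 bases before the start of Mrc1 (chr2:14229164-14229413, plus strand) and of Trem2 (chr17:48346151-48346400, plus strand), and capitals mark GAGGAA or its reverse complement TTCCTC.
Mrc1: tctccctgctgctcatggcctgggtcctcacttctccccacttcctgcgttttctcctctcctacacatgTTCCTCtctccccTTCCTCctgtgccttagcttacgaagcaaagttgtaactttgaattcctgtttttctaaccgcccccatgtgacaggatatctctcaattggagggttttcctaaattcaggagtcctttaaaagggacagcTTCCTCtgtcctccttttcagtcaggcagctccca
Trem2: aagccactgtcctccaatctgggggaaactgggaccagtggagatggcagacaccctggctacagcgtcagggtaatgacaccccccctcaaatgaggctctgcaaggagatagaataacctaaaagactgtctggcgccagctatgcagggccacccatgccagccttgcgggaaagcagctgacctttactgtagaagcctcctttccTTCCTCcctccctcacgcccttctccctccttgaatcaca

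The RefSeq promoter table held 8 sequences of 300 bases for 7 of the 10 genes, from 250 bases before to 50 after the start, with 2 starts for Folr2. GAGGAA was present on either strand in 3 of the 8, those of Mrc1, Trem2 and Cd68, and in 28.3% of 32851 promoters of all genes. The longer form GAGGAAGT, which contains GAGGAA, was in none of the 8 and in 3.2% of all promoters. TATAAA was in none of the 8 and in 13.6% of all. A match to so short a motif describes the letters of the window and does not show whether a factor binds there.

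All 9 measured genes were expressed in every library. Compared per length, as CPM per kilobase of exon, Csf1r had the highest mean in all 4 groups. In 4-week DMM cartilage that mean was 51.8 ± 3.68, beside 44.3 ± 22.5 for Folr2, and in DMM replicate 3 Folr2 (70.2) and Adgre1 (51.1) were above Csf1r (47.6). In control cartilage at 4 weeks its level was 49.5 ± 17.1 (SD, n = 3). Adgre1 followed with 18.2 ± 7.37, then Folr2 with 17.02 ± 11.2, Lyve1 with 12.7 ± 9.74 and Trem2 with 10.7 ± 4.36. Mrc1 had 7.36 ± 3.16, Cd163 had 4.51 ± 1.55, Mertk had 2.98 ± 1.13 and Timd4 had 2.10 ± 0.550. From Adgre1 down to Timd4, each neighbouring pair had overlapping libraries. In control cartilage at 12 weeks Folr2 and Lyve1 stood lower in the order, and Mertk stood above Cd163. Csf1r was again first with 50.8 ± 11.7 CPM per kilobase, followed by Adgre1 with 14.4 ± 1.67 and Trem2 with 12.2 ± 2.13. Mrc1 had 5.61 ± 1.41, Mertk 3.68 ± 1.17, Folr2 3.004 ± 0.381 and Cd163 2.95 ± 1.07, and Lyve1 (1.07 ± 0.254) stood beside Timd4 (1.04 ± 0.240) at the low end. Neighbours in this order had overlapping libraries, except Csf1r with Adgre1, Trem2 with Mrc1, and Cd163 with Lyve1.

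**Figure D1:**
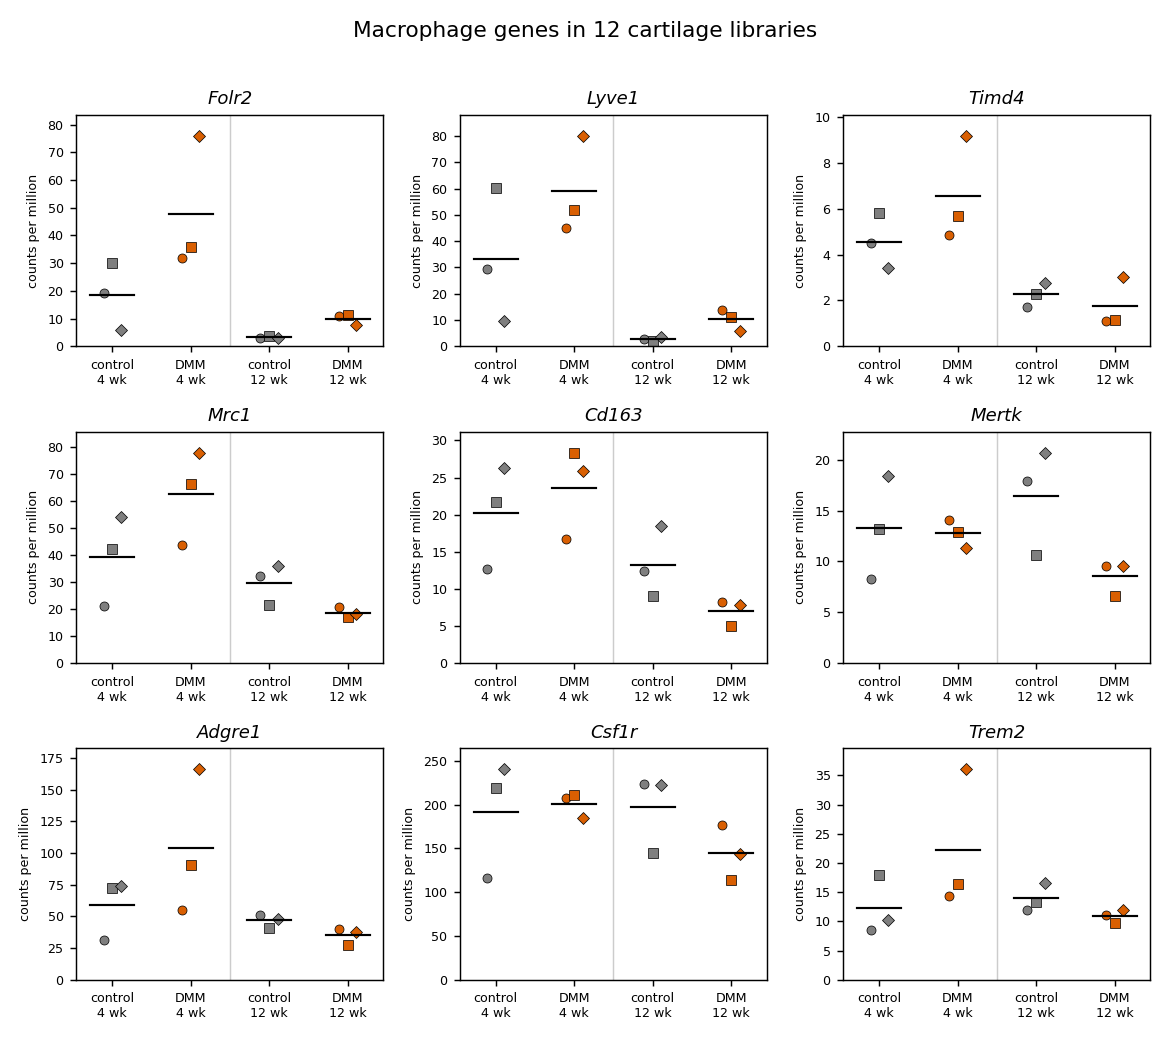
CPM (TMM-scaled, linear axis from 0) of the 9 macrophage genes in the 12 libraries, by limb and week; grey is control, orange is DMM, marker shape is the replicate number and lines are group means. Folr2 and Lyve1 were below 4 CPM in the 3 control libraries of 12 weeks and above 5 CPM in the 3 DMM libraries.

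At 4 weeks after surgery, most of the genes had a higher mean in DMM than in control cartilage, but none passed the test. Folr2 was measured at 19.3, 30.0 and 5.90 CPM in the control libraries and at 32.0, 35.7 and 75.9 CPM in the DMM libraries. All 3 DMM libraries were above all 3 controls, with a log2 fold change of 1.38 (SE 0.56, edgeR adjusted p = 0.353). Lyve1 was measured at 29.4, 60.1 and 9.72 CPM in control and at 45.0, 52.0 and 80.1 CPM in DMM cartilage. Its groups overlapped through control replicate 2, the highest control for both genes. The control library of replicate 3 was the lowest for both.

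Among the pan-macrophage genes, Adgre1 was at 31.5, 72.1 and 73.64 CPM in control and 54.8, 90.7 and 165.9 CPM in DMM libraries, and its log2 fold change was 0.80 (SE 0.45). Csf1r had nearly equal means, 191.8 ± 66.2 CPM in control and 200.8 ± 14.3 CPM in DMM cartilage (SD, n = 3), with a log2 fold change of 0.06 (SE 0.29). Trem2 was at 8.60, 17.9 and 10.2 CPM in control and 14.4, 16.5 and 36.01 CPM in DMM libraries, with a log2 fold change of 0.86 (SE 0.41). DMM replicate 3 was the highest of all 12 libraries for Folr2, Lyve1, Adgre1, Mrc1, Timd4 and Trem2. Mrc1 differed by 0.67 on the log2 scale (SE 0.36), Timd4 by 0.52 (SE 0.32), Cd163 by 0.21 (SE 0.32) and Mertk by -0.06 (SE 0.30).

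In all, 8 of the 9 genes were higher and 1 was lower at 4 weeks, with a median log2 fold change of 0.67. Over 15195 genes, 48.1% were higher and the median was -0.02. No gene of the 9 was called by edgeR or by DESeq2, and 1 had an unadjusted p under 0.05 in edgeR, beside 2891 of 21140 transcripts tested. edgeR called 0.0757% of all transcripts tested and DESeq2 3.44%. Groups did not overlap for 1 of the 9, Folr2, in the higher direction and for 0 in the lower direction, against 10.8% and 10.3% of all genes. The exact two-sided permutation p for Folr2 was 0.1, the smallest that 3 libraries against 3 allow.

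At 12 weeks the genes parted. Folr2 was at 2.89, 3.70 and 3.15 CPM in control and at 11.1, 11.1 and 7.73 CPM in DMM cartilage. Every DMM library exceeded every control, with a 3.08-fold difference (log2 1.62, SE 0.22, edgeR adjusted p = 0.0643). Lyve1 was at 2.89, 2.08 and 3.40 CPM in control and at 13.9, 11.3 and 5.89 CPM in DMM cartilage. It was likewise higher in all 3 DMM libraries, by 3.75-fold (log2 1.91, SE 0.35, edgeR adjusted p = 0.126). DESeq2 called both (adjusted p = 2.96e-08 for Folr2 and 2.99e-05 for Lyve1), whereas edgeR called neither. These were the only measured genes of the list with a higher mean in DMM cartilage at 12 weeks.

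The scavenger and engulfment receptors lay on the other side. Mertk was at 17.9, 10.6 and 20.7 CPM in control and 9.59, 6.62 and 9.58 CPM in DMM libraries, with a log2 fold change of -0.92 (SE 0.27, edgeR adjusted p = 0.236). All 3 DMM values were below all 3 control values, and DESeq2 called the gene (adjusted p = 0.0432). Cd163 was at 12.4, 9.00 and 18.5 CPM in control and 8.26, 4.98 and 7.76 CPM in DMM libraries. Its log2 fold change was -0.91 (SE 0.30, edgeR adjusted p = 0.259). Mrc1 was at 32.1, 21.4 and 35.9 CPM in control and 20.9, 16.99 and 18.0 CPM in DMM libraries, which differed by -0.67 on the log2 scale (SE 0.21, edgeR adjusted p = 0.246). For both genes the groups did not overlap, although the closest libraries of Mrc1 were only 21.4 and 20.9 CPM. Control replicate 2 was the lowest control for Mertk, Cd163, Mrc1, Adgre1 and Csf1r. Without it, edgeR called Mertk (log2 -1.19, adjusted p = 0.0353), Mrc1 (log2 -0.90, adjusted p = 0.0352) and Folr2 (log2 1.69, adjusted p = 0.0324). Without DMM replicate 3 it called Folr2 (log2 1.78, adjusted p = 0.0243) and Lyve1 (log2 2.19, adjusted p = 0.0306). Without control replicate 1 or 3, or DMM replicate 1 or 2, edgeR called 0 of the 9 and 0 of all transcripts. Over all transcripts it called 860 without control replicate 2 and 102 without DMM replicate 3, beside 1 with every library kept. The highest edgeR adjusted p with 1 library left out was 0.453 for Folr2, 0.653 for Lyve1, 0.696 for Mertk and 0.708 for Mrc1.

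Among the pan-macrophage genes, Adgre1 was at 51.4, 40.8 and 48.1 CPM in control and 40.1, 27.1 and 38.0 CPM in DMM cartilage. The groups just missed each other, and the log2 fold change was -0.41 (SE 0.18). Csf1r was at 223.8, 144.4 and 222.5 CPM in control and 176.3, 113.6 and 143.0 CPM in DMM libraries, with overlapping groups and a log2 fold change of -0.44 (SE 0.235). Trem2 differed by -0.34 (SE 0.18) and Timd4 by -0.36 (SE 0.43), both with overlapping groups.

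Counted together at 12 weeks, 2 of the 9 genes lay above their controls and 7 below, with a median log2 fold change of -0.41. Over 15095 genes, 52.3% were higher and the median was 0.02. None of the 9 was called by edgeR, and DESeq2 called 2 higher and 1 lower. In edgeR 5 had an unadjusted p under 0.05, beside 3430 of 21010 transcripts tested. edgeR called 0.00476% of all transcripts tested and DESeq2 4.02%. Groups did not overlap for 6 of the 9 genes, 2 of them higher in DMM cartilage and 4 lower, against 9.92% higher and 8.43% lower over all genes. For each of the 6 the exact two-sided permutation p was 0.1, the smallest possible.

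**Figure D2:**
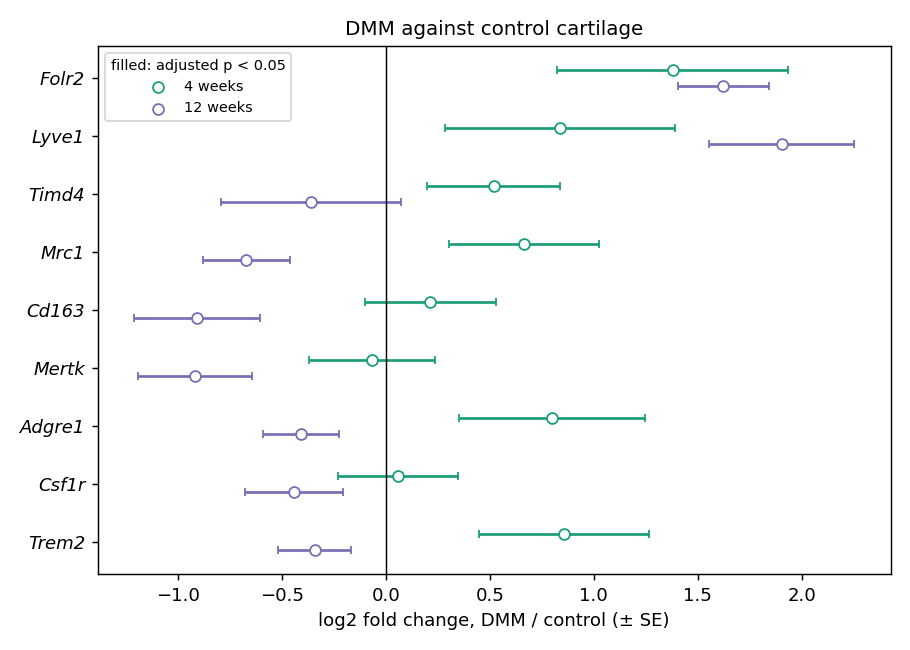
Log2 fold change between DMM and control cartilage with its standard error (edgeR, 3 against 3 libraries) for each of the 9 genes at 4 weeks (green) and 12 weeks (purple). At 12 weeks Folr2 and Lyve1 lie above 0 and the other 7 genes below 0, and no symbol is filled because no gene had an adjusted p under 0.05.

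The change between weeks in the DMM effect was tested as the interaction of limb and week. It was below 0 for 7 of the 9 genes, with a median of -0.88 on the log2 scale, beside a median of 0.03 over 15589 genes. Mrc1 had the most negative value (-1.36, SE 0.45, unadjusted p = 0.0106, edgeR adjusted p = 0.405). Adgre1 followed with -1.23 (SE 0.54), Trem2 with -1.21 (SE 0.49) and Cd163 with -1.14 (SE 0.47). For Folr2 (0.23, SE 0.67) and Lyve1 (1.06, SE 0.74) the value was above 0 and within 2 standard errors of it. edgeR and DESeq2 called none of the 9, of which 4 had an unadjusted p under 0.05, and edgeR called 0% of all transcripts tested (2656 at an unadjusted p under 0.05), whereas DESeq2 called 16 of them. A difference between the weeks was therefore not shown for any single gene.

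Between 4 and 12 weeks the control knees themselves differed in Folr2 and Lyve1. Folr2 fell from 18.4 ± 12.1 to 3.25 ± 0.412 CPM (SD, n = 3), a log2 fold change of -2.50 (SE 0.50, edgeR adjusted p = 0.0189). Lyve1 fell from 33.1 ± 25.4 to 2.79 ± 0.663 CPM, a log2 fold change of -3.57 (SE 0.57, edgeR adjusted p = 0.00995). The control libraries of the weeks did not overlap for Folr2, Lyve1 or Timd4. Timd4 was at 4.50, 5.80 and 3.41 CPM at 4 weeks and 1.73, 2.29 and 2.77 CPM at 12 weeks, but did not pass (log2 -1.01, SE 0.40, edgeR adjusted p = 0.145). The other 6 genes had overlapping controls. Their log2 values were -0.61 (SE 0.33) for Cd163, -0.39 (SE 0.32) for Mrc1, -0.34 (SE 0.38) for Adgre1, 0.04 (SE 0.27) for Csf1r, 0.19 (SE 0.35) for Trem2 and 0.30 (SE 0.30) for Mertk. The call for Lyve1 was lost without 12-week control replicate 1 (log2 -3.63, adjusted p = 0.0667). The call for Folr2 was lost without 4-week control replicate 1 (-2.48, adjusted p = 0.0651) or 2 (-1.95, adjusted p = 0.0755), or 12-week control replicate 1 (-2.45, adjusted p = 0.104) or 3 (-2.51, adjusted p = 0.0675). The 12-week controls enter this comparison and the one of DMM with control at 12 weeks, so the low control values of Folr2 and Lyve1 bear on both.

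Of the 9 genes, 2 were called lower at 12 weeks in the control limb and 0 higher. Over all transcripts, edgeR called 5.69% in either direction and 3.24% lower. Non-overlapping lower values were found for 3 of the 9 genes and non-overlapping higher values for 0, beside 11.1% and 15.8% of all genes. The median log2 fold change of the 9 was -0.39, beside -0.01 over all genes.

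In the DMM limb the whole list was lower at 12 than at 4 weeks. All 9 genes had lower values in each 12-week library than in any 4-week library, beside 19% of all genes, and 0 had higher ones, beside 22.9%. edgeR called 6 of the 9 lower, against 10.1% of all transcripts called lower and 23.6% called in either direction. Lyve1 fell from 59.0 ± 18.6 to 10.4 ± 4.07 CPM (log2 -2.51, SE 0.54, adjusted p = 0.00909). Folr2 fell from 47.9 ± 24.4 to 9.97 ± 1.94 CPM (log2 -2.26, SE 0.49, adjusted p = 0.0090). These are the 2 genes that were also called in the control limb.

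The scavenger receptors fell in the DMM limb as well. Mrc1 went from 62.6 ± 17.3 to 18.6 ± 2.02 CPM (log2 -1.75, SE 0.33, edgeR adjusted p = 0.0053) and Cd163 from 23.7 ± 6.14 to 7.00 ± 1.77 CPM (log2 -1.75, SE 0.34, adjusted p = 0.00589). Timd4 went from 4.86, 5.66 and 9.18 CPM to 1.096, 1.15 and 3.03 CPM (log2 -1.89, SE 0.41, adjusted p = 0.00968). Adgre1 fell from 103.8 ± 56.7 to 35.1 ± 7.01 CPM (log2 -1.56, SE 0.39, adjusted p = 0.0161). Its call was lost without 4-week DMM replicate 3 (log2 -1.09, adjusted p = 0.0831) and without 12-week DMM replicate 2 (adjusted p = 0.0573) or 3 (adjusted p = 0.0504).

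Trem2, Mertk and Csf1r were lower without passing. Trem2 had a log2 fold change of -1.03 (SE 0.35, edgeR adjusted p = 0.0513), and DESeq2 called it (adjusted p = 0.0165). edgeR called it too without 4-week control replicate 1 (adjusted p = 0.0394), 2 (adjusted p = 0.0418) or 3 (adjusted p = 0.0344), or without 4-week DMM replicate 1 (adjusted p = 0.0232). The control libraries are not part of this comparison and entered only the shared fit of 4 groups. Without control replicate 1, 2 or 3 the log2 fold change stayed at -1.02, -1.03 and -1.07. With any 1 library left out, the log2 fold change of Trem2 ranged from -1.26 to -0.53, and its edgeR adjusted p reached 0.272. Mertk had -0.57 (SE 0.30, edgeR adjusted p = 0.192) and Csf1r -0.48 (SE 0.27, edgeR adjusted p = 0.222). Over the 9 genes the median log2 fold change was -1.75, beside 0.02 over all genes.

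Lists of other tissues held genes called between the weeks as well. Over all transcripts, edgeR called 23.6% in the DMM limb (10.1% lower) and 5.69% in the control limb (3.24% lower). All 6 adipocyte genes were lower at 12 weeks in both limbs, with a median log2 fold change of -1.59 in the DMM limb, where edgeR called 3 (Adipoq, Cfd and Retn), and of -1.58 in the control limb, where it called 1 (Cfd). The endothelial genes Pecam1 (log2 -0.92, edgeR adjusted p = 0.00961) and Emcn (log2 -0.92, adjusted p = 0.0255) were called lower in the DMM limb. All 10 neutrophil genes were higher at 12 weeks in both limbs, with medians of 0.57 in the DMM limb and 1.04 in the control limb, and edgeR called 1 in each, Mpo (myeloperoxidase). Of the 7 genes of MHC class II, 6 were lower in the DMM limb (median log2 -0.38), where H2-Aa (edgeR adjusted p = 0.0223) and H2-Eb1 (adjusted p = 0.0182) were called, as were Mmrn1 of lymphatic endothelium (log2 -1.46, adjusted p = 0.0131) and Gzma of lymphocytes (log2 -1.28, adjusted p = 0.0120). Of the 10 chondrocyte genes, 7 were higher in the DMM limb (median log2 0.56), with Acan (the proteoglycan aggrecan, log2 1.34, edgeR adjusted p = 0.0280) and Sox9 (a chondrocyte transcription factor, log2 2.08, adjusted p = 0.0075) called. In the control limb 8 of the 10 were lower (median log2 -0.75), with Cnmd called (log2 -1.72, adjusted p = 0.0322). Their part in the macrophage values was not tested.

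**Figure D3:**
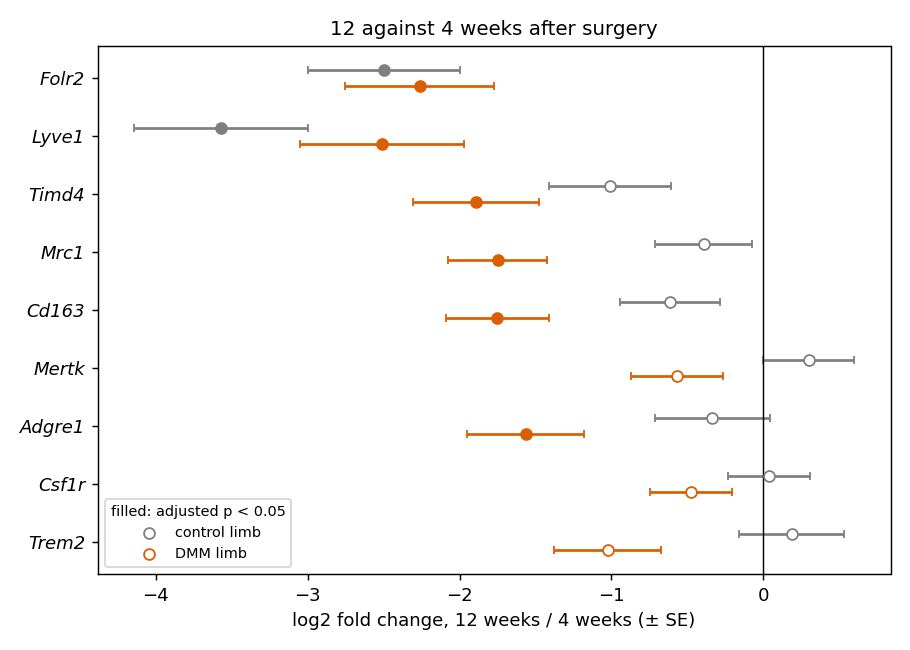
Log2 fold change from 4 to 12 weeks after surgery with its standard error (edgeR, 4 groups of 3 libraries in 1 fit) in the control limb (grey) and the DMM limb (orange); filled symbols have an adjusted p under 0.05. In the control limb 2 genes are filled, Folr2 and Lyve1, and in the DMM limb 6 of the 9.

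A ratio to Csf1r within a library compares 2 genes of the same RNA. Folr2 stood at 1.29, 2.56 and 1.42% of the Csf1r count in the 12-week controls and at 6.29, 9.77 and 5.41% in the 12-week DMM libraries. At 4 weeks it was 16.6, 13.7 and 2.46% in control and 15.4, 16.95 and 41.2% in DMM cartilage, with overlapping groups. Lyve1 was at 1.29, 1.44 and 1.53% of Csf1r in the 12-week controls and 7.87, 9.94 and 4.12% in the 12-week DMM libraries, again without overlap. At 4 weeks Lyve1 was at 25.26, 27.45 and 4.046% in control and 21.7, 24.66 and 43.44% in DMM cartilage, with overlapping groups. These ratios were not tested. The limbs overlapped at 12 weeks in the ratios of Mrc1 and Adgre1 to Csf1r. Mrc1 stood at 14.4 to 16.1% in control and 11.8 to 15.0% in DMM libraries, and Adgre1 at 21.6 to 28.3% and 22.8 to 26.6%. Mertk (7.34 to 9.31% against 5.44 to 6.70%) and Cd163 (5.52 to 8.29% against 4.38 to 5.43%) were lower in DMM cartilage without overlap.

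The wider macrophage list of 22 genes held others with the course of Folr2 and Lyve1. Vsig4, a complement receptor of resident macrophages, was at 11.02 to 35.6 CPM in the 4-week controls and 32.3 to 82.9 CPM in the 4-week DMM libraries. At 12 weeks it was at 1.78 to 3.34 CPM in control and 4.46 to 7.82 CPM in DMM cartilage, without overlap (log2 1.33, SE 0.35, edgeR adjusted p = 0.215). It fell between the weeks in the control limb (log2 -3.18, adjusted p = 0.00785) and in the DMM limb (log2 -3.28, adjusted p = 0.00333). Cbr2, a carbonyl reductase, was at 15.2 to 32.4 CPM in control and 40.8 to 81.1 CPM in DMM cartilage at 4 weeks, and at 6.80 to 9.05 and 9.76 to 16.1 CPM at 12 weeks. It fell between the weeks in both limbs, with log2 fold changes of -1.64 (edgeR adjusted p = 0.0176) in control and -2.18 (adjusted p = 0.00335) in DMM. Those 2 genes of the 22 were called lower in the control limb by edgeR, and DESeq2 called Cd209f, a C-type lectin, as well (log2 -1.23, edgeR adjusted p = 0.0510, DESeq2 adjusted p = 0.00467). edgeR called 1 higher there, Cx3cr1, the fractalkine receptor (log2 1.05, adjusted p = 0.0491).

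In the DMM limb edgeR called 9 of the 22 lower at 12 than at 4 weeks and 0 higher, beside 10.1% of all transcripts called lower and 23.6% called in either direction. Beside Vsig4 and Cbr2 these were the complement genes C1qa (log2 -1.26, edgeR adjusted p = 0.00811), C1qb (-1.28, adjusted p = 0.00973) and C1qc (-1.26, adjusted p = 0.00756). Ctss, a lysosomal protease, fell by 1.51 on the log2 scale (adjusted p = 0.0175), Ms4a7 by 1.32 (adjusted p = 0.0192), Cd209f by 2.08 (adjusted p = 0.00392) and F13a1, coagulation factor XIII A, by 1.02 (adjusted p = 0.0137). Lyz2, the lysozyme of myeloid cells and the most abundant gene of the list, did not pass (log2 -0.20, adjusted p = 0.708).

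Between the limbs, 19 of the 22 genes were higher in DMM cartilage at 4 weeks (median log2 0.54) and 17 were lower at 12 weeks (median log2 -0.26), and edgeR called 0 at either week. DESeq2 called F13a1 and Cbr2 higher at 4 weeks, and at 12 weeks Vsig4 higher and Itgam, an integrin of myeloid cells, lower. At 12 weeks the groups did not overlap for 3 genes in the higher direction (Vsig4, Cbr2 and F13a1) and 8 in the lower, beside 9.92% and 8.43% of all genes. The interaction was below 0 for 21 of the 22 and was called for 0.

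Of 12 genes of the CSF1 receptor axis (ligands, signalling genes and transcription factors), edgeR called 0 between the limbs at either week. DESeq2 called Inpp5d, a lipid phosphatase of blood cells, lower at 12 weeks (log2 -1.12, adjusted p = 0.0233). Csf1, the ligand, was at 62.1 CPM on average in control and 50.3 CPM in DMM cartilage at 4 weeks and 66.2 and 65.5 CPM at 12 weeks. Il34, the other ligand, lay between 7.44 and 10.9 CPM in all 12 libraries. Spi1 and Irf8, transcription factors of the myeloid lineage, were called higher at 12 than at 4 weeks in the DMM limb (log2 1.06, adjusted p = 0.0214, and log2 0.99, adjusted p = 0.0324). Their direction was opposite to that of the 6 called macrophage genes. The 2 were the only ones of the 12 that edgeR called there, beside 2936 of all 21618 transcripts called higher. In the control limb the log2 fold changes of Spi1 and Irf8 were 1.04 (edgeR adjusted p = 0.0518) and 1.09 (edgeR adjusted p = 0.0528). DESeq2 called both there (adjusted p = 0.0128 and 0.0135) as well as Runx1 (adjusted p = 0.0392).

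Among 10 partners of TREM2 and of the TAM receptors (the family of Mertk), edgeR called 0 between the limbs at either week. Gas6, a ligand of Mertk, had means of 186.6 and 188.4 CPM at 4 weeks and 186.6 and 193.0 CPM at 12 weeks in control and DMM cartilage. Pros1, the other ligand, had a log2 fold change between limbs of 0.28 at 4 weeks and 0.16 at 12 weeks. Tyrobp, the signalling adaptor of TREM2, had a log2 fold change of -0.38 at 12 weeks (adjusted p = 0.368). Syk, the kinase that TYROBP recruits, had -0.95 (edgeR adjusted p = 0.211), with non-overlapping groups, and DESeq2 called it. Cd36, a scavenger receptor for lipids, was the one gene of the list that edgeR called between weeks, lower in the DMM limb at 12 weeks (log2 -1.34, adjusted p = 0.00807). DESeq2 also called Pros1 lower in the DMM limb (adjusted p = 0.0340) and Mfge8, a bridging protein of phagocytosis, lower in the control limb (adjusted p = 0.0403).

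Lists of other cell types moved beside these genes. One that was higher in the DMM limb at 12 weeks, as were Folr2 and Lyve1, held 8 fibroblast and synovium genes. The summed level of the list was 507.7 to 1132 CPM in the 4-week controls and 2712 to 4578 CPM in the 4-week DMM libraries. At 12 weeks it was 425.2 to 468.1 CPM in control and 762.5 to 1467 CPM in DMM cartilage, and the limbs did not overlap at either week. The library lowest in this sum among the 4-week controls was replicate 3, as for Folr2 and Lyve1, and the lowest among the 12-week DMM libraries was replicate 3, also as for Folr2 and Lyve1. The highest of all 12 was 4-week DMM replicate 3, as for both genes. Among the 12-week controls the sum was lowest in replicate 2, where Lyve1 was lowest too but Folr2 was highest. The sum of the adipocyte genes was also lowest in replicate 3 of the 4-week controls (158.5 CPM) and of the 12-week DMM libraries (85.4 CPM). Its highest library was 4-week DMM replicate 1 (360.0 CPM). Lum, a proteoglycan of connective tissue, made up most of the fibroblast and synovium sum, with 2251 to 3880 CPM in the 4-week DMM libraries. Its log2 fold changes between limbs were 2.27 at 4 weeks (edgeR adjusted p = 0.180) and 1.68 at 12 weeks (adjusted p = 0.0864). At each week 7 of the 8 genes were higher in DMM cartilage. The other, Pi16, was lower (log2 -0.44 at 4 weeks, without overlap, and -0.24 at 12 weeks). Groups did not overlap in the higher direction for 6 of the 8 at 4 weeks and 5 at 12 weeks, beside 10.8% and 9.92% of all genes. edgeR called 0 of the 8 between the limbs at either week, and DESeq2 called 4 higher at each, among them Lum (adjusted p = 5.63e-08 and 1.14e-07) and Dpt (adjusted p = 0.00218 and 1.29e-09). The group order differed from that of Folr2 and Lyve1 in one place, since the median sum was 1270 CPM in the 12-week DMM libraries and 980 CPM in the 4-week controls. Dpt, a matrix protein of fibroblasts, fell between weeks in the control limb (log2 -3.79, adjusted p = 0.0107) and the DMM limb (log2 -2.50, adjusted p = 0.0120). Of the 8 genes, edgeR called 6 lower (Pdgfra, Dpt, Lum, Col14a1, Clic5 and Cd34) and 1 higher (Pi16) at 12 than at 4 weeks in the DMM limb, and in the control limb it called Dpt and Col14a1 lower and Pi16 higher. The part of synovial tissue in the values of Folr2 and Lyve1 was not tested.

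Lyve1 also marks lymphatic vessels. Prox1, the transcription factor that defines lymphatic endothelium, was at or below 0.549 CPM in every library. Between weeks in the DMM limb all 5 lymphatic genes were lower at 12 weeks, as was Lyve1, with a median log2 fold change of -1.46 and 4 of the 5 without overlap, and edgeR called 1 of them, Mmrn1. Between the limbs the 5 genes had values of either sign. Ccl21a, a chemokine of lymphatic endothelium, was at 0.409 to 4.27 CPM in control and 8.29 to 19.6 CPM in DMM libraries at 4 weeks (log2 2.56, edgeR adjusted p = 0.259, DESeq2 adjusted p = 0.00437). At 12 weeks it was at 0 to 0.462 CPM in control and 0.574 to 6.45 CPM in DMM libraries, so that the limbs did not overlap at either week, as for Folr2, and as for Lyve1 at 12 weeks. Flt4 and Mmrn1, the genes of the list with the highest counts at 12 weeks, lay the other way there (log2 -1.41 and -1.15), which edgeR did not call and DESeq2 called. The summed level of the 5 lymphatic genes was 28.4 to 60.9 CPM in control and 57.5 to 76.9 CPM in DMM libraries at 4 weeks, and 28.5 to 68.0 CPM and 17.3 to 33.8 CPM at 12 weeks. Most of this sum was Mmrn1 alone, with 19.3 to 45.7 CPM in the 12-week controls and 12.0 to 19.9 CPM in the 12-week DMM libraries. The part of lymphatic vessels in the values of Lyve1 was not tested. The sum of 6 blood endothelial genes was 91.4 to 131.0 CPM and 92.4 to 121.4 CPM in the 12-week control and DMM libraries, and 119.8 to 157.6 CPM and 145.3 to 162.0 CPM in those of 4 weeks.

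Blood and marrow lists lay lower in the DMM limb at 12 weeks, as did 7 of the 9 macrophage genes. All 8 monocyte genes were below 0 there (median log2 -0.53), as were all 10 neutrophil genes (-0.51), all 7 genes of antigen presentation by MHC class II (-0.27), all 7 erythroid genes (-0.32, with the near-equal counts of Hba-a1 and Hba-a2 among them), all 6 B lymphocyte genes (-0.54) and all 5 T and NK lymphocyte genes (-0.56). edgeR called 0 of these, and DESeq2 called 4 of them. All 10 chondrocyte genes lay above 0 (median log2 0.52), of which edgeR called 0 and DESeq2 1. At 4 weeks 8 of these 10 lay below 0 and 2 above (median log2 -0.88), with 2 groups not overlapping, edgeR calling 0 and DESeq2 1 (Cnmd, log2 -0.95, adjusted p = 0.00579). At 12 weeks the median log2 fold change between the limbs was -0.01 for 8 osteoclast genes, 0.21 for 5 tested adipocyte genes and -0.32 for 8 skeletal muscle genes. At 4 weeks muscle genes were the furthest from 0 (median log2 -2.54, with Myh1 called lower, edgeR adjusted p = 0.0491). All 8 were lower in DMM cartilage without overlap, beside 10.3% of all genes, and DESeq2 called 6 of them lower. Their sum was 4114 to 15240 CPM in control and 389.1 to 2421 CPM in DMM libraries. The part of these lists in the macrophage values was not tested.

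**Figure D4:**
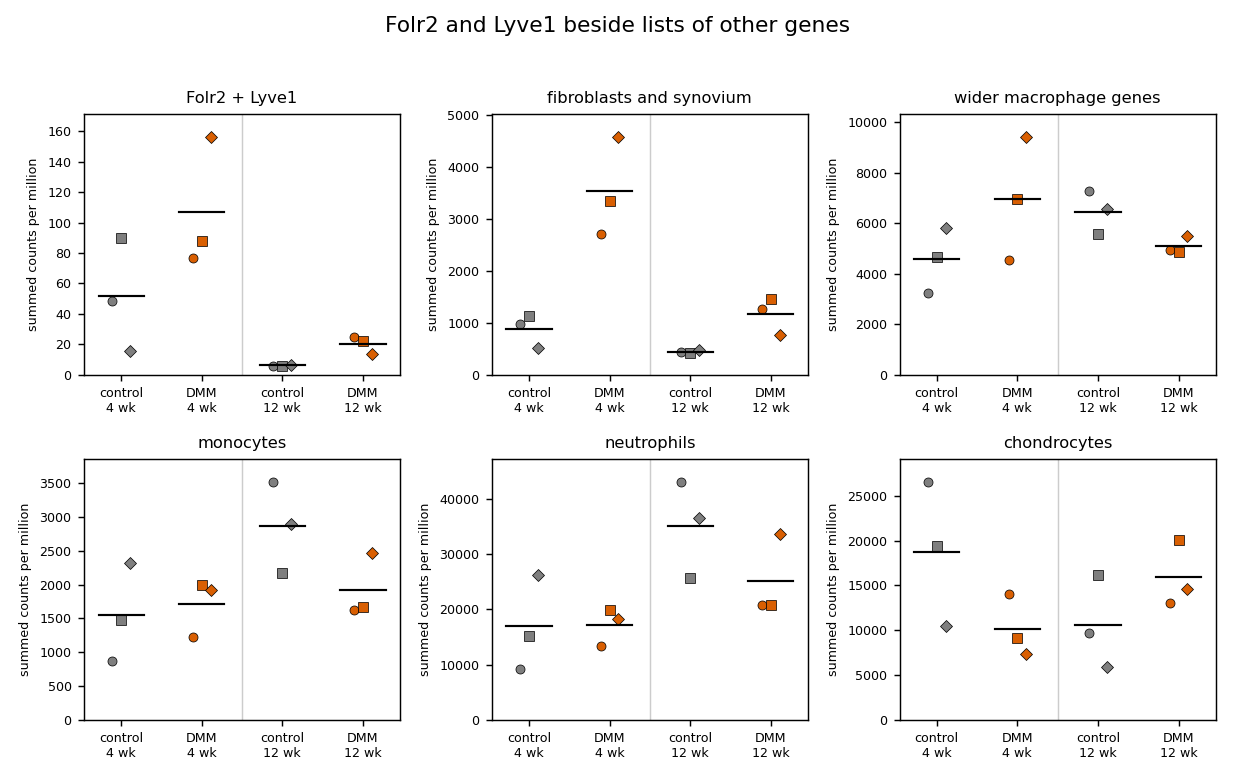
Summed CPM (linear axis from 0) of Folr2 and Lyve1 and of 5 gene lists in each of the 12 libraries; grey is control, orange is DMM, marker shape is the replicate number and lines are group means. The fibroblast and synovium list has its lowest sums in the 12-week controls and its highest in the 4-week DMM libraries, with 425.2 to 468.1 CPM in the 12-week controls and 2712 to 4578 CPM in the 4-week DMM libraries.

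The genes closest in pattern to the mean of the 9 were sought among 13562 others, as the smallest mean absolute difference in centred log2 CPM over the 12 libraries. Cyria, a regulator of Rac1, came first with 0.16. Chm and Lamp2 (a lysosomal membrane protein) followed with 0.19 each, then C920009B18Rik and Ifit2 with 0.20 each and C1qc with 0.20. Phf11b, Vwa5a, Cd36 and Gm14403 completed the 10, with 0.21 each. Of the 10, C1qc and Cd36 belonged to a list used here. Among the members themselves, Adgre1 (0.29) and Mrc1 (0.29) were closest to the mean, and Folr2 (0.89) and Lyve1 (1.14) furthest from it. Folr2 spanned 4.69 and Lyve1 5.23 on the log2 scale between their lowest and highest libraries, against 1.08 for Csf1r.

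DNA methylation was read by reduced representation oxidative bisulfite sequencing, which reports 5-methylcytosine (5mC) as the percentage of reads with C at a cytosine in MspI-rich parts of the genome. A window counted when it held at least 3 cytosines with at least 10 reads in all 12 oxidised libraries. Windows of 1000 bases on either side of the start qualified for Mertk, Timd4 and Adgre1, and gene body windows for Folr2, Adgre1, Csf1r, Mrc1, Mertk and Trem2. None qualified for Cd68, Cd163 or Lyve1.

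The start of Mertk was nearly free of 5mC. Over 43 cytosines it ranged from 0.392 to 0.893% in the 12 libraries, with 1200 to 7783 reads behind each value. Timd4 was at the other end, with 77.1 to 91.2% over the 6 cytosines of the stretch shown above and 126 to 836 reads. The 3 cytosines of Adgre1 had 61.3 to 87.2%, with 87 to 536 reads. Among all promoter windows the median was 0.798%, 75.5% of windows were under 10% and 11.8% were over 70%. The cartilage DNA comes from all cells of the tissue, so these levels are not those of macrophages.

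No window of these genes passed the test between the limbs. At 12 weeks Timd4 had 81.3 ± 3.70% in control and 86.7 ± 4.10% in DMM cartilage (SD, n = 3), a difference of 5.37 points (limma adjusted p = 0.568). Adgre1 differed by 8.45 points around its start (69.5 ± 8.93% in control and 78.0 ± 5.79% in DMM, limma adjusted p = 0.620) and Mertk by -0.04 points. The body of Csf1r was at 80.3, 80.3 and 85.9% in the 12-week controls and 73.3, 76.3 and 80.0% in the 12-week DMM libraries. That was a difference of -5.62 points (limma unadjusted p = 0.0535, adjusted p = 0.322). The 4 cytosines of the Folr2 exon shown above had 42.5 to 57.5% in all 12 libraries, with differences of -2.76 points at 4 weeks and -3.78 points at 12 weeks. The bodies of Adgre1, Mrc1, Mertk and Trem2 lay within 66.3 to 84.7% in all libraries, and their differences were between -2.34 and 1.72 points. limma called 0 of the 3 promoter and 6 body windows at either week and 0 had an unadjusted p under 0.05. Over all genes it called 0% of 18833 promoter and 0% of 17969 body windows, with 808 and 1928 promoter and 751 and 2851 body windows at an unadjusted p under 0.05 at 4 and 12 weeks.

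Libraries without oxidation report 5mC and 5-hydroxymethylcytosine (5hmC) together, and their difference from the oxidised libraries estimates 5hmC. In the body of Csf1r it was 9.23 to 14.7 points in the 4-week controls, 10.6 to 12.6 points in the 4-week DMM libraries, 0.18 to 4.53 points in the 12-week controls and 6.21 to 13.8 points in the 12-week DMM libraries. The unoxidised library of 12-week DMM replicate 1 carries another replicate number in its file than in its label, so its pairing is in doubt, and without it the 12-week DMM values were 12.97 and 6.21 points. The estimate subtracts the same oxidised value that gives 5mC, so a high 5mC value lowers it, and the 5hmC and 5mC values of Csf1r are not separate observations. In Folr2 the difference ranged from -2.11 to 20.5 points over the 12 pairs of libraries, with overlapping groups, and at the start of Mertk from -0.40 to 0.14 points. An amount of 5hmC cannot be below 0, so the negative values show error in such a difference, and its source was not tested. No test was made on these estimates.

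**Figure D5:**
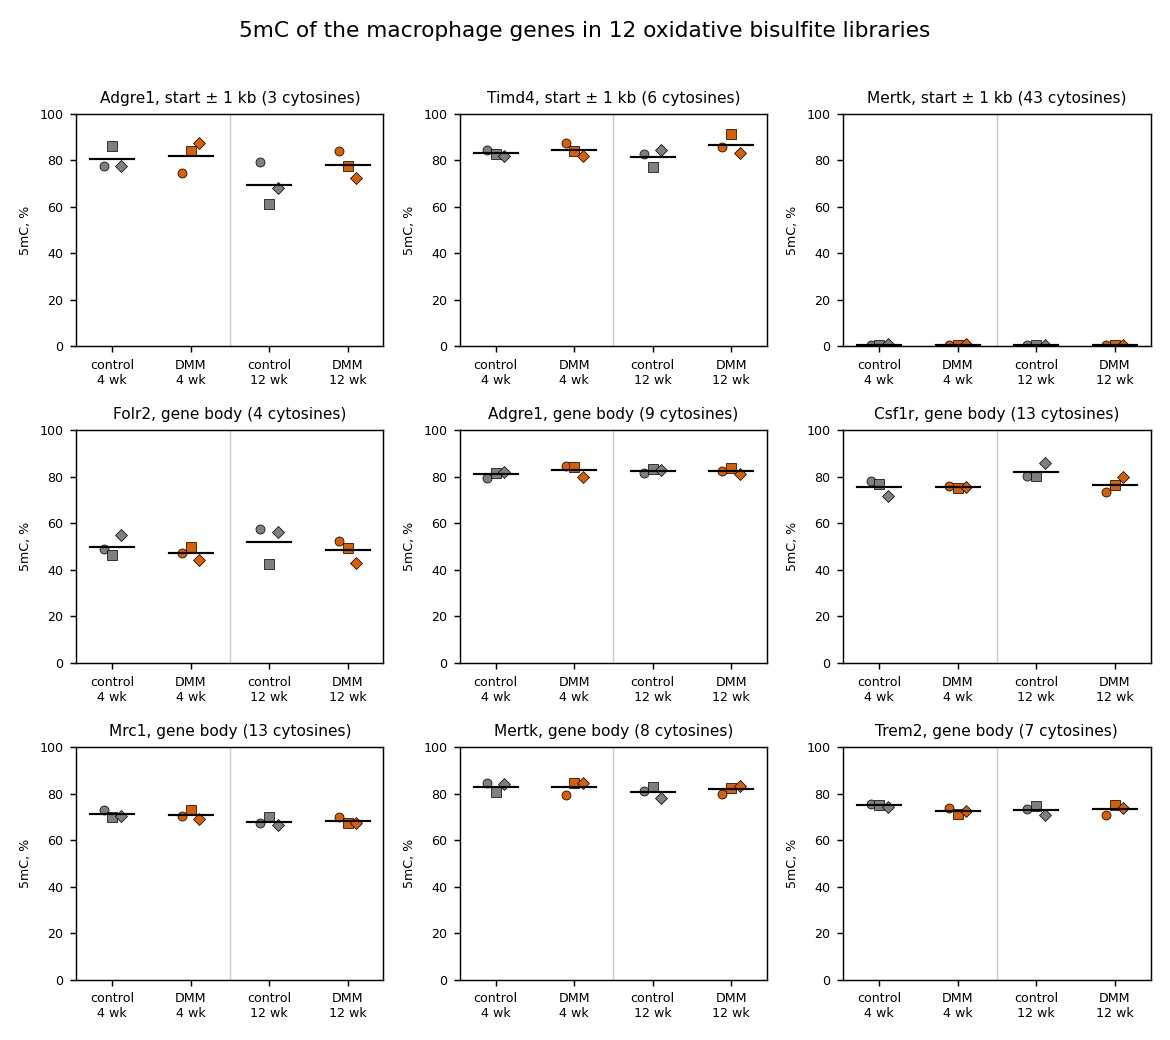
5mC in percent (linear axis, 0 to 100) in each of the 12 oxidised libraries for the 9 windows of the macrophage genes with at least 3 measured cytosines; grey is control, orange is DMM, marker shape is the replicate number and lines are group means. The start of Mertk stays under 1% in all libraries and that of Timd4 above 77%, and no window separates the limbs by the test.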

How the data were processed

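RNA-seq was made from 12 pooled cartilage samples and RRoxBS from 12 others, each split into an oxidised and an unoxidised library. Per the paper's methods, the authors used STAR for alignment and featureCounts on RefSeq transcripts (mm10). The deposited RNA values are counts that were not normalized. The methods describe cDNA from a SMART-Seq kit, whereas the labels describe poly(A) libraries. For RRoxBS the deposited files give, per cytosine, coverage counts and the percent of reads with C and with T. Their lowest coverage was 10 reads, and the submitters' processing notes name Bismark without saying its role.

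Symbols came from RefSeq for 29476 transcripts and from the study's gene table for 16. Counts were scaled with TMM factors of 12 libraries to CPM. Limbs were compared within weeks, and weeks within limbs in a fit of 4 groups, with edgeR 4.0.16 (robust quasi-likelihood test, filterByExpr). A call is an adjusted p under 0.05 (Benjamini-Hochberg) over all transcripts. For 5mC, reads were summed per window (1000 bases either side of the start, or the rest of the gene), and log2((methylated + 1)/(unmethylated + 1)) was tested with limma 3.58.1 in R 4.3.3. The fits were tested on simulated data, and tables were made with Python 3.11.15. Alternatives were DESeq2 1.42.0, median-of-ratios factors, other filters, 1 transcript per gene, a single fit of 12 libraries, the replicate block, other windows and coverage, and each library left out. Libraries of a group are separate pools of knees, so p-values measure the spread between these pools. The control and DMM knees came from the same mice, and the main tests did not treat the limbs as pairs.

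The genes and lists were chosen with earlier results of these data known. All measured members were named. From the other lists, genes that edgeR called in an RNA comparison were named. Lists with no such gene had as their most abundant gene Chil3 (monocytes), Mmp9 (osteoclasts), Hbb-bs (erythroid cells) and Cd79b (B lymphocytes). Genes named for groups that do not overlap, for a DESeq2 call alone or as ligands and adaptors without a call were chosen after their values were seen, as were the ratio to Csf1r and the setting apart of Folr2 and Lyve1. The genes most alike were the 10 closest among those with a mean of at least 1 CPM, from log2 CPM with a prior count of 2.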

Additional observations from a re-analysis of the deposited data

How the results depend on the processing

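Counts of called transcripts depended on the tool and on single libraries. Between the limbs, edgeR called 16 transcripts at 4 weeks and 1 at 12 weeks, and DESeq2 called 747 and 861. At 4 weeks edgeR called 0 with at least 10 counts in every library, 0 with 1 transcript per gene and 35 with all 12 libraries in 1 fit, and at 12 weeks it called 56 without a filter on low counts. Without 1 library it called 0 to 118 at 4 weeks and 0 to 860 at 12 weeks. DESeq2, chosen for this after seeing the data, called 422, 579 and 1313 without a 4-week control library (replicates 1, 2 and 3) and 2370, 299 and 284 without a 4-week DMM library. At 12 weeks it called 199, 3318 and 276 without a control library and 267, 147 and 2469 without a DMM library. DESeq2 called 16 transcripts for the interaction and 2991 between weeks in the control limb, where edgeR called 0 and 1229. Without 1 library, edgeR called 0 to 3 for the interaction, 37 to 4685 between weeks in the control limb and 1682 to 6396 in the DMM limb.

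Of the 9 macrophage genes at 12 weeks, edgeR called 0 between the limbs and 0 to 3 without 1 library, and 1 without a filter on low counts (Folr2). DESeq2 called 3, and 2 to 6 without 1 library. At 4 weeks DESeq2 called 2 of the 9 without control replicate 2. In the control limb 0 to 2 were called between weeks without 1 library, and in the DMM limb 5 to 7. Small values changed sign. At 4 weeks, without 1 library, Csf1r ranged from -0.20 to 0.25, Cd163 from -0.025 to 0.45 and Mertk from -0.31 to 0.24 on the log2 scale with edgeR. With DESeq2 Csf1r was -0.199 and Cd163 -0.0296 without control replicate 1, and Mertk was 0.257 without control replicate 3 and 0.0189 without DMM replicate 3. In the control limb Csf1r ranged from -0.24 to 0.22 and Trem2 from -0.03 to 0.57 between weeks, and the interaction of Folr2 from -0.31 to 0.73. For 5mC in gene bodies at 12 weeks, the mean of cytosine percentages gave 389 calls where summed reads gave 0. The causes were not tested.

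Correlations across transcripts were taken on the deviation of each library's log2 CPM from the mean of its group. For same-numbered control and DMM libraries they were 0.359, -0.326 and 0.081 at 4 weeks and -0.548, 0.262 and -0.254 at 12 weeks. For differently numbered ones they ranged from -0.367 to 0.455 at 4 weeks and from -0.432 to 0.578 at 12 weeks. The limbs are those of the same animals, but no source ties pools of 1 number to each other, and these correlations do not settle it. With the replicate block edgeR called 354 transcripts at 4 weeks and 734 at 12 weeks, and DESeq2 called 1133 and 2600. Of the 9 genes at 12 weeks, edgeR called 2 with the block (Folr2 and Mertk) and DESeq2 7, against 0 and 3 without it. Mertk at 4 weeks was 0.0049 with the block in edgeR and 0.0041 in DESeq2.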
